A study of Mus musculus with 2 samples.

Results

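Astrocytes and the neural stem cells (NSCs) of the adult hippocampus share a set of genes that clear transmitter, potassium and water from around neurons, and 9 of these genes were followed here: Slc1a2, Slc1a3, Glul, Slc6a11, Grin2c, Kcnj10, Aqp4, Gja1 and Gjb6. They were chosen by symbol, are 9 of the 22587 gene symbols in the deposited matrices, and each matched exactly 1 row. The study deleted Opa1, which encodes a GTPase of the inner mitochondrial membrane needed for fusion and cristae structure, in adult hippocampal NSCs. Opa1 cKO mice carried floxed Opa1, Nestin-CreERT2, a tamoxifen-inducible Cre under the nestin promoter, and ROSA26YFP, a reporter that turns on YFP in recombined cells and their progeny. CT mice, Opa1-Flox negative according to the protocol though the strain label is the same for both libraries, carried the same Cre and reporter and also received tamoxifen. Mice of both groups were given tamoxifen at 8 weeks of age and their hippocampi were collected at 12 weeks. Living YFP+ cells of 3 mice per group were sorted into 1 library per group with the droplet 3′ kit of 10x Genomics, which counts unique molecular identifiers (UMIs) at the 3′ ends of mRNAs. Values in cells without a YFP UMI and within matched steps of the mt- share, given below, were added after the other results had been seen. With 1 library per genotype there is no replicate error and no test between genotypes. Genotype, pool and library cannot be told apart, and all intervals below are 95% intervals of counting error only.

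Glutamate released by neurons is taken up by glial transporters, above all GLT-1 (Slc1a2) and GLAST (Slc1a3), and is turned into glutamine by glutamine synthetase (Glul). GABA is taken up by, among others, GAT-3 (Slc6a11). Potassium enters glia through the inward rectifier Kir4.1 (Kcnj10), water moves through aquaporin-4 (Aqp4) at endfeet around vessels, and gap junctions of connexin 43 (Gja1) and connexin 30 (Gjb6) join glial cells into a network in which ions and metabolites spread. Grin2c encodes the NMDA receptor subunit GluN2C, which is enriched in astrocytes. Radial glia-like NSCs of the dentate gyrus express many of the same genes as astrocytes, so that finding these genes in a cell does not name its type. Whether their levels differ between the 2 cell types was not tested.

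In the GENCODE M21 annotation of GRCm38, the build of the files, Slc1a2 lies at chr2:102658659-102790784, Slc1a3 at chr15:8634124-8710764, Glul at chr1:153899944-153909723 and Slc6a11 at chr6:114131241-114249952. Grin2c lies at chr11:115249169-115267243, Kcnj10 at chr1:172341210-172374085, Gja1 at chr10:56377330-56402513 and Gjb6 at chr14:57123303-57133611. Of these genes, Glul alone shares exon bases with another gene that the matrices count, Teddm2 on the opposite strand. Whether the counting used strand is not given in the sources used here.

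RefSeq promoter windows of GRCm38.p6 were given for 8 of the 9 genes. The 250 bases before the start are shown 5′ to 3′ on the gene's strand for the 3 genes that were lowest in Opa1 cKO relative to CT, Grin2c (chr11:115267244-115267493, minus strand), Slc6a11 (chr6:114130991-114131240, plus strand) and Gja1 (chr10:56377050-56377299, plus strand), and for Glul (chr1:153899679-153899928, plus strand), the member with the highest level in both libraries, as a contrast. Capitals mark TTGGC or its reverse complement GCCAA, the half-site of nuclear factor I proteins, which act in glial development.
Grin2c: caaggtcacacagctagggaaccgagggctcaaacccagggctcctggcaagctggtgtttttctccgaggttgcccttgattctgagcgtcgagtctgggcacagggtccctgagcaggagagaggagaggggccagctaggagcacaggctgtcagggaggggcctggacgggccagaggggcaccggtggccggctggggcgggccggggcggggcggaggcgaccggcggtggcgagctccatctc
Slc6a11: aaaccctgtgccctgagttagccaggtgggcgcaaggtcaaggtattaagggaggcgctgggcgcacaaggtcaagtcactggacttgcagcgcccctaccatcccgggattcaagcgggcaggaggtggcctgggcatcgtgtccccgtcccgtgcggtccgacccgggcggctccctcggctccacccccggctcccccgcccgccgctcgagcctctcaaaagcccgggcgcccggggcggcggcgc
Gja1: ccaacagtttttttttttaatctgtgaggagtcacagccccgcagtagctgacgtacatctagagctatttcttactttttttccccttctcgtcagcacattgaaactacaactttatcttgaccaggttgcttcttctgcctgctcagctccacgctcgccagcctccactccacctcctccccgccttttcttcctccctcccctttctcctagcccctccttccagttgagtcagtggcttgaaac
Glul: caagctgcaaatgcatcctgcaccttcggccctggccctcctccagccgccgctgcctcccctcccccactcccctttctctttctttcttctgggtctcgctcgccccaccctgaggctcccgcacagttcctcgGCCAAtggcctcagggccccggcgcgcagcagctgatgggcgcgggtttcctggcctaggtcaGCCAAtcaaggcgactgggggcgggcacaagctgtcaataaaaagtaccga
The Glul window held the half-site in 2 places and the other windows shown held none. Of all 32851 promoter windows of this length, 41.5% held it, and 3 of the 8 member windows did. AACAAT or ATTGTT, the core bound by SOX proteins, was in 0 of the 8 and in 9.42% of all windows. TGATGNAA or TTNCATCA, the response element shared by C/EBP and ATF factors, was in 0 of the 8 and in 3.45% of all windows. A missing match says only that these letters are not in this window. The Grin2c and Slc6a11 windows had a GC content of 68.8% and 71.2%, against 50% for Gja1 and 64.8% for Glul.

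The libraries held 10799936 (CT) and 18662032 (Opa1 cKO) UMIs, and the filters left 1790 cells of CT and 3764 of Opa1 cKO. Of all barcodes 36 occurred in both libraries, 9 of them among the kept cells. Clustered without the 9 genes, 1378 CT and 2596 Opa1 cKO cells were called NSC pool-like from a list of 11 markers that includes Aldoc, Sox9 and Hopx. In clusters 0, 1 and 2, which made up the class, 6 of the 11 were over 2-fold above clusters of other types. Hopx was among the top 10 genes of another cluster, called activated NSC-like below. The markers on the list do not part stem cells from astrocytes. No cluster could be named astrocyte, because the mature astrocyte markers were used for summed levels only. The top 10 genes of clusters 1 and 2 held 0 of the 11 markers, and those of cluster 0 held 1. The class name is thus a label that can cover either cell type. The 10 markers of mature astrocytes, all above 0, summed to 10726 CPM, the UMIs of a gene divided by all UMIs of the same cells and scaled by 1e6, in CT and to 9650 in Opa1 cKO, and the 8 markers of radial glia-like NSCs, all above 0, to 899 and 882 CPM. Most of the latter sums was Fabp7, at 589 and 596 CPM, and Hopx, at 174 and 165 CPM. Nes had 3 and 9 UMIs and Vnn1 had 12 and 7. The class came from different clusters in the libraries: cluster 0 held 4 CT and 1805 Opa1 cKO cells, cluster 1 held 960 and 682, and cluster 2 held 414 and 109. Cluster 0, almost all from 1 library, may be that library and not a cell type. Globin genes led the endothelial-like cluster. In NSC pool-like cells Opa1 itself stood at 18.5 CPM (CT) and 8.08 CPM (cKO), from 70 and 69 UMIs. Which exons were deleted is not given in the labels, and tags at the 3′ end may lie outside them.

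In CT all but 1 of the 9 genes had their highest level in NSC pool-like cells. The exception was Kcnj10, with 105 CPM (94.7 to 116) in NSC pool-like cells and 168 CPM (54.7 to 393) in the 11 activated NSC-like cells, 2 intervals that overlap. Slc1a2 had 4537 CPM (4469 to 4605) in NSC pool-like cells, 1751 CPM (1308 to 2297) in activated NSC-like and 449 CPM (389 to 515) in progenitor and neuron-like cells. Slc1a3 stayed near its top level in the activated class, with 4061 CPM (3997 to 4126) in NSC pool-like and 3604 CPM (2953 to 4355) in activated NSC-like cells, and stood at 707 CPM (631 to 789) in progenitor and neuron-like cells. The 11 activated NSC-like cells of CT also had 2560 CPM of progenitor and neuron markers, 7 of the 11 at 0, beside 2290 CPM of their own class's markers. They had 842 CPM of oligodendrocyte precursor markers from 25 UMIs, with Pdgfra above 0 and only Cspg4 and Gpr17 of the 6 at 0. The part of these in the levels was not tested. Both glutamate transporters were thus low in the neurogenic progeny, and of the pair Slc1a2 had intervals that do not overlap between the NSC pool-like and the activated class, while those of Slc1a3 overlap.

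The classes outside the lineage can show how much of a gene is read in cells that should lack it. This holds for Slc1a2, but not for a gene that such a class expresses, such as Glul in oligodendrocyte-like cells. Slc1a2 had 476 CPM (399 to 562) in CT oligodendrocyte-like, 528 CPM (439 to 630) in endothelial-like and 924 CPM (783 to 1084) in mural-like cells, so the 449 CPM of progenitor and neuron-like cells was not above this background. After every cell was thinned to 1500 UMIs, Slc1a2 was found in 99.1% of CT NSC pool-like cells and in 25.7% (16.2 to 37.2) of oligodendrocyte-like cells. Median depths before thinning were 2494 and 3768 UMIs. The 94 CT mural-like cells were shallow, with a median of 1415 UMIs, and 53 of them fell under the thinning depth.

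Glul, which oligodendrocytes also express, was second highest in oligodendrocyte-like cells, with 3875 CPM (3651 to 4110) for CT and 4703 CPM (4502 to 4911) for Opa1 cKO. The level in NSC pool-like cells was 5987 CPM (5910 to 6066) for CT and 6690 CPM (6636 to 6745) for Opa1 cKO. Aqp4 and Gja1 were second highest in ependymal-like cells in CT, the cells that line the ventricles. Aqp4 had 438 CPM (323 to 581) there against 549 CPM (526 to 573) in NSC pool-like cells, and Gja1 had 648 CPM (506 to 818) against 2900 CPM (2846 to 2954). Kcnj10 had 83.3 CPM (53.4 to 124) in CT oligodendrocyte-like cells, an interval that overlaps that of NSC pool-like cells, whereas it had no UMI in CT mural-like cells (up to 22.6 CPM) and 8.59 CPM in endothelial-like cells.

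Gjb6, Slc6a11 and Grin2c were low in CT in each class other than NSC pool-like cells. Gjb6 had 790 CPM (762 to 819) in NSC pool-like cells and from 44.4 to 98.0 CPM in the 6 other classes. Slc6a11 had 513 CPM (491 to 537), and 168 CPM (54.7 to 393) in the activated class, the next highest. Grin2c had 246 CPM (231 to 262), and no UMI in the 11 activated NSC-like cells of CT, a count whose exact interval reaches 124 CPM.

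**Figure D1:**
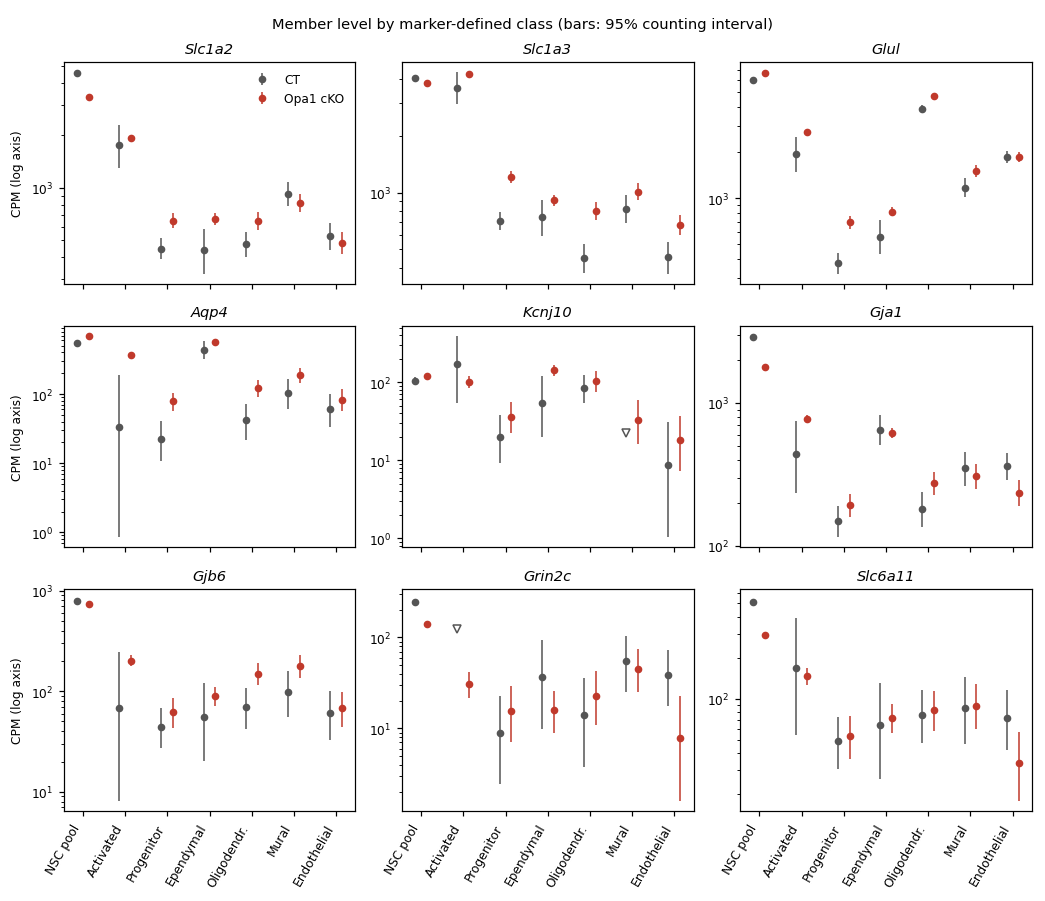
Level of each gene in CPM (log axis, its own range in each panel) by marker-defined class, CT in grey and Opa1 cKO in red, as the sum of UMIs over the cells of 1 library with 95% counting intervals; an open triangle stands at the upper limit of a class with no UMI. The NSC pool-like class is highest or close to highest in each panel, and Glul has a second high class in oligodendrocyte-like cells. The classes outside the lineage give the background only for genes they do not express.

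The activated NSC-like class, with Frzb as its leading gene, was almost all from Opa1 cKO, with 398 cells against 11. Its name rested on 5 of 9 activated NSC markers over 2-fold, beside 4 of 11 NSC pool markers. Its top 10 genes held 2 of each. In Opa1 cKO its radial glia-like NSC markers summed to 2441 CPM against 882 in NSC pool-like cells. Its activated NSC markers summed to 1191 against 204 CPM. Mki67, Top2a, Eomes and Neurod1 had no UMI in this class in either library. Within the Opa1 cKO library, Slc1a3 was slightly higher there than in NSC pool-like cells, at 4255 CPM (4141 to 4371) against 3821 CPM (3780 to 3863). The other genes except Kcnj10 were lower there. How many of all genes differed as much between these 2 classes was not computed, so this is not read as a trait of the 9 genes. Grin2c had 30.4 CPM (21.5 to 41.7) against 142 CPM (134 to 150), Gjb6 had 202 CPM (177 to 228) against 732 CPM (714 to 750), and Gja1 had 769 CPM (722 to 820) against 1783 CPM (1755 to 1812). Kcnj10 was close between the classes, at 102 CPM (84.7 to 121) and 119 CPM (112 to 127), with overlapping intervals. When the 9 genes were kept in the clustering, a cluster of 10 CT and 417 Opa1 cKO cells, also led by Frzb, still separated, but its markers gave it the name NSC pool-like.

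The first comparison asks how the 9 genes differed between Opa1 cKO and CT in NSC pool-like cells. Slc6a11, Grin2c and Gja1 were lower in Opa1 cKO by more than 1.5-fold, Slc1a2 was lower by less, and Aqp4, Kcnj10 and Glul were higher by less than 1.5-fold. So 3 of 9 genes were past 1.5-fold lower and 0 past 1.5-fold higher, where 6.82% of the 5496 genes with at least 300 UMIs were as much lower and 13.9% as much higher. The median log2 ratio of the 9 genes was -0.11, with a middle gene (Gjb6) whose interval ran from -0.17 to -0.05, and that of all 5496 genes was 0.14. The background at this filter was thus itself shifted upward. The filter adds the UMIs of both libraries, and Opa1 cKO gave 8541224 of them against 3778053 for CT. Among the 10102 genes with at least 50 UMIs, 13% were as much higher and 11.5% as much lower, so these shares depend on the filter. The median of all genes was not computed at that filter.

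Among the transporters, Slc6a11 had 513 CPM in CT but 296 CPM (285 to 308) in the cKO, with a log2 ratio of -0.79 (-0.88 to -0.71). Slc1a2 went from 4537 to 3330 CPM (3291 to 3369), a log2 ratio of -0.45 (-0.47 to -0.42). Slc1a3 differed little, at 4061 and 3821 CPM and a log2 ratio of -0.09 (-0.12 to -0.06). The GABA transporter was thus the lowest of the 3 in Opa1 cKO relative to CT, and the 2 glutamate transporters had intervals of the ratio that do not overlap. Glul, the enzyme that uses the glutamate taken up, was higher by 0.16 (0.14 to 0.18) on the log2 scale, close to the median of all genes.

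Grin2c, the receptor subunit, went from 246 to 142 CPM, a log2 ratio of -0.80 (-0.92 to -0.67). Of the 5496 genes, 2.82% had a lower ratio than Grin2c and 2.84% a lower one than Slc6a11. The connexins differed from each other. Gja1 went from 2900 to 1783 CPM, a log2 ratio of -0.70 (-0.74 to -0.67), whereas Gjb6 had 790 and 732 CPM and a log2 ratio of -0.11 (-0.17 to -0.05). Among the channels, Aqp4 went from 549 to 681 CPM (663 to 698), a log2 ratio of 0.31 (0.24 to 0.38), and Kcnj10 from 105 to 119 CPM, a log2 ratio of 0.19 (0.02 to 0.36). Kcnj10 rested on 396 CT and 1019 Opa1 cKO UMIs, the smallest number in the Opa1 cKO library among the 9 genes.

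Other markers moved between the same groups of cells. The 11 markers of the NSC pool summed to 75722 (CT) and 67665 CPM (cKO). Markers of oligodendrocyte precursors summed to 108 and 321 CPM, of which Olig1 made up 88.1 and 281 CPM, with 2 of the 6, the defining Pdgfra and Gpr17, at 0 in both libraries. The 8 microglia markers summed to 68.3 and 130 CPM. The median depth per cell was 2494 UMIs in CT and 2963 UMIs in Opa1 cKO. The part of these differences in the ratios of the 9 genes was not tested.

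**Figure D2:**
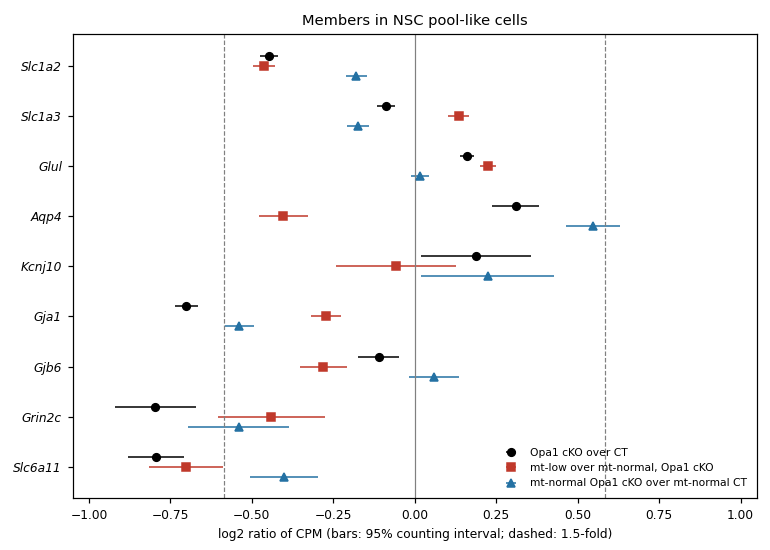
Log2 ratio of CPM for each gene in NSC pool-like cells, with 95% counting intervals, for Opa1 cKO over CT (black circles), mt-low over mt-normal cells of the Opa1 cKO library (red squares) and mt-normal Opa1 cKO over mt-normal CT cells (blue triangles); dashed lines mark 1.5-fold. Grin2c, Slc6a11 and Gja1 lie left of 0 in all 3, whereas Aqp4 lies right of 0 in both contrasts with CT and left of it within the Opa1 cKO library.

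Cells of the Opa1 cKO library differed widely in the share of their UMIs from the 13 mRNAs encoded by mitochondrial DNA, called the mt- share here. Its median over NSC pool-like cells was 5.24% in CT and 0.67% in Opa1 cKO. A share under 1% (mt-low) was found in 1588 of the 2596 Opa1 cKO cells but in 3 of the 1378 CT cells. The second comparison asks how the 9 genes differed between the mt-low and the other, mt-normal, Opa1 cKO cells. Both groups come from 1 library and were parted by mitochondrial transcripts, not by the 9 genes. Opa1 had 6.61 CPM (4.61 to 9.19) in mt-low and 10.5 CPM (7.25 to 14.6) in mt-normal cells, 2 intervals that overlap.

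On the CPM scale Slc6a11 alone was past 1.5-fold in this comparison, and lower, where 2.13% of 4320 genes were as much lower and 13.1% as much higher. With the median of all genes subtracted, Slc1a2 (-0.69), Grin2c (-0.67) and Aqp4 (-0.63) were past it as well. The share of all genes past it on that scale was not computed, and the shares above do not apply to it. Of the 4320 genes, 3.77% had a lower ratio than Slc1a2, 4.21% than Grin2c and 4.95% than Aqp4. Slc6a11 had 239 CPM (226 to 252) in mt-low and 389 CPM (368 to 411) in mt-normal cells, a log2 ratio of -0.70 (-0.82 to -0.59). Slc1a2 had 2912 CPM (2867 to 2959) and 4010 CPM (3941 to 4079), a log2 ratio of -0.46 (-0.50 to -0.43). Slc1a3 went the other way, with 3955 and 3603 CPM and a log2 ratio of 0.13 (0.10 to 0.17), which becomes -0.09 once the median of all genes is subtracted. Glul was also higher in mt-low cells, at 7080 CPM (7009 to 7152) against 6055 CPM (5971 to 6140), a log2 ratio of 0.23 (0.20 to 0.25) that is close to the median of all genes. The glutamate transporters thus had opposite signs within the same library on the CPM scale, and intervals that do not overlap.

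Grin2c had 125 CPM in mt-low and 169 CPM in mt-normal cells, a log2 ratio of -0.44 (-0.61 to -0.27). Aqp4 was lower in mt-low cells, at 606 CPM (585 to 628) against 802 CPM (772 to 834), a log2 ratio of -0.40 (-0.48 to -0.33). Both connexins were lower to a like extent, Gja1 with a log2 ratio of -0.27 (-0.32 to -0.23) and Gjb6 with -0.28 (-0.35 to -0.21). Kcnj10 did not differ beyond counting error, at 117 and 122 CPM and a log2 ratio of -0.06 (-0.24 to 0.13), and its direction depended on the mt- cut, with -0.35 at a cut of 0.5% and 0.23 at 2%. The median of the 9 genes was -0.28 (-0.35 to -0.21, the interval of Gjb6), and that of all genes 0.23, and 8 of the 9 lay below the median of all genes.

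In the same cells the summed markers of mature astrocytes were 8956 CPM in mt-low and 10780 CPM in mt-normal cells, and those of radial glia-like NSCs 786 and 1040 CPM. Most of the latter difference was Fabp7, at 503 and 749 CPM, while Hopx, at 163 and 169.7 CPM, did not differ beyond counting error. Olig1 had 353 and 164 CPM. Median depths were 2967 and 2959 UMIs. The part of these markers in the ratios was not tested.

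The third comparison sets the mt-normal cells of the libraries against each other, 1008 from Opa1 cKO and 1375 from CT. No member was past 1.5-fold, where 1.83% of 3556 genes were as much higher and 4.98% as much lower. This depended on the processing: of 13 alternatives, Grin2c was past 1.5-fold lower in 7, Gja1 in 4 and Slc6a11 in 3, and Aqp4 past it higher in 1. Gja1 and Grin2c were lowest, both with a log2 ratio of -0.54 (-0.58 to -0.49 and -0.69 to -0.39). Gja1 had 1996 CPM (1948 to 2046) against 2900 CPM in CT, and Grin2c 169 CPM (156 to 184) and 246 CPM. Slc6a11 was lower by less, with 389 and 514 CPM and a log2 ratio of -0.40 (-0.50 to -0.30). Aqp4 was the highest, with 802 and 549 CPM and a log2 ratio of 0.55 (0.46 to 0.63), just short of 1.5-fold.

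Slc1a2 and Slc1a3 were each slightly lower, with log2 ratios of -0.18 (-0.21 to -0.15) and -0.17 (-0.21 to -0.14). Kcnj10 was slightly higher, with a log2 ratio of 0.22 (0.02 to 0.43). Glul, at 0.02 (-0.01 to 0.05), and Gjb6, at 0.06 (-0.02 to 0.13), did not differ beyond counting error. The median of the 9 genes was -0.17 and that of all genes 0.03. Beside these ratios, Olig1 had 88.0 CPM in CT and 164 CPM in the cKO, the 8 microglia markers summed to 68.1 and 126 CPM, with none at 0 in either library, and mature astrocyte markers to 10725 and 10780 CPM. The near-equal sums of the mature astrocyte markers held single log2 ratios from -0.53 to 0.45. The part of all these markers in the ratios of the 9 genes was not tested. The 3 comparisons share cells, the first and the third share the CT cells, and they are not independent of each other.

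Cells were then divided by finer steps of the mt- share, keeping steps with at least 20 cells. In the Opa1 cKO library Slc1a2 had 2332 CPM in the 315 cells under 0.25%, 3266 CPM from 0.5 to 1%, 3658 CPM from 4 to 8% and 6905 CPM in the 101 cells above 8%. In CT, Slc1a2 had 3241 CPM from 2 to 4%, 4194 CPM from 4 to 8% and 7559 CPM above 8%. Its level was thus highest in the cells with the highest mt- share in both libraries, and within each of the 3 steps that both libraries fill the log2 ratio of Opa1 cKO over CT was small, at 0.05 (-0.04 to 0.13), -0.20 (-0.24 to -0.15) and -0.13 (-0.20 to -0.06).

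Glul ran the other way. It had 7783 CPM under 0.25% and 5300 CPM above 8% in Opa1 cKO, and 7193 CPM from 2 to 4% and 4547 CPM above 8% in CT. Slc6a11 had 209 CPM under 0.25% and 482 CPM above 8% in Opa1 cKO, and 443 and 631 CPM at the ends of the CT range. Kcnj10 followed no single direction in Opa1 cKO, with 80.4 CPM under 0.25%, 213 CPM from 1 to 2% and 96.0 CPM from 4 to 8%. Grin2c was flat between 122 and 130 CPM in the 5 Opa1 cKO steps under 4% and reached 275 CPM above 8%.

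Gja1 and Aqp4 differed between the libraries at every shared step. From 2 to 4%, 4 to 8% and above 8%, Gja1 had 3229, 2869 and 2620 CPM in CT and 1948, 2089 and 1838 CPM in Opa1 cKO, with log2 ratios of -0.73 (-0.83 to -0.63), -0.46 (-0.52 to -0.40) and -0.51 (-0.65 to -0.38). Aqp4 had 484, 559 and 591 CPM in CT and 736, 877 and 896 CPM in Opa1 cKO, with log2 ratios of 0.60 (0.40 to 0.80), 0.65 (0.54 to 0.76) and 0.60 (0.37 to 0.82). Past 1.5-fold higher, as Aqp4 was at each, were 4.56%, 1.31% and 4.76% of genes. Aqp4 also had ratios above 0 in classes where its level was low. Its log2 ratio was 1.82 (0.82 to 2.98) in progenitor and neuron-like and 1.55 (0.62 to 2.59) in oligodendrocyte-like cells, from 10 and 12 CT UMIs (22.2 and 41.7 CPM). It was 0.85 (0.06 to 1.72) in mural-like cells, with 104 CPM in CT. The part of free RNA in these ratios was not tested. In ependymal-like cells, with 438 CPM in CT, the ratio was 0.35 (-0.07 to 0.81). In endothelial-like cells it was 0.46, and both intervals included 0. Of the members with at least 300 UMIs, Gja1 was past 1.5-fold lower in the step from 2 to 4%, as were 4.3% of genes there, and none in the other steps (6.05% and 2.72% of genes). Grin2c, with under 300 UMIs in the first and last of these steps, had log2 ratios of -0.91 (-1.29 to -0.53), -0.40 (-0.61 to -0.20) and -0.20 (-0.58 to 0.16), the last not beyond counting error. Slc6a11 was also lower in Opa1 cKO at each step, with log2 ratios from -0.40 to -0.30 and intervals below 0.

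**Figure D3:**
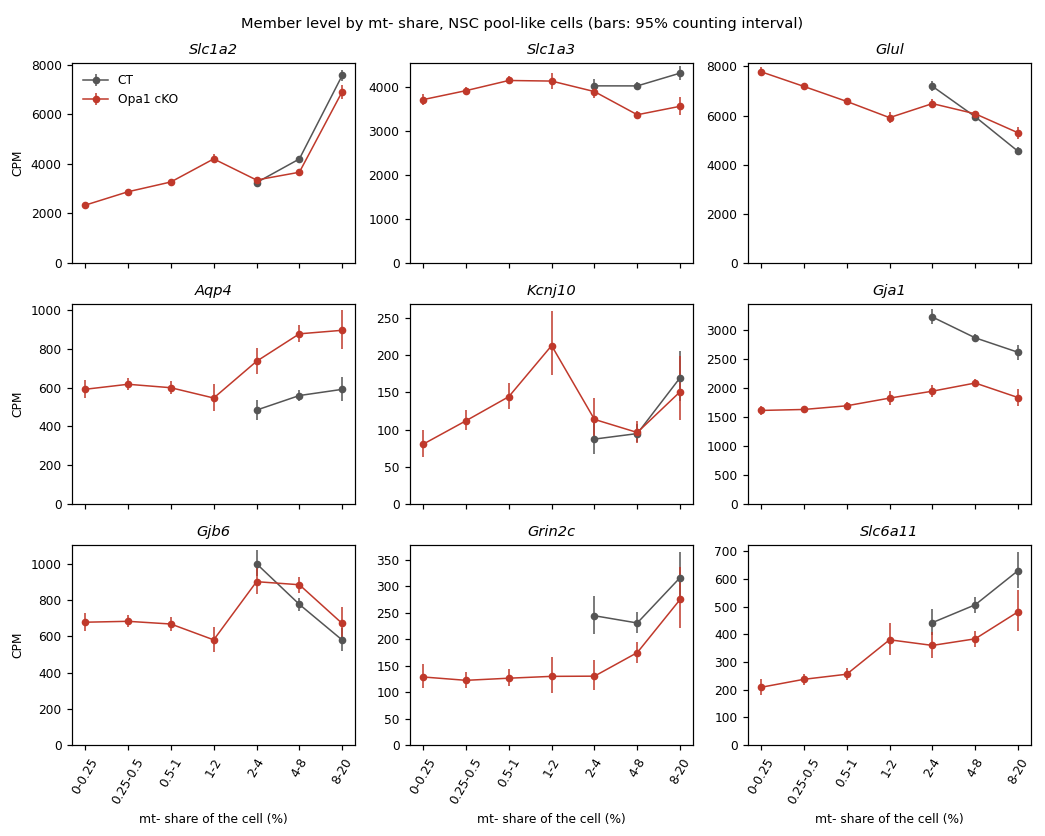
Level of each gene in CPM (linear axis from 0) in NSC pool-like cells grouped by mt- share in percent of the UMIs of a cell, CT in grey and Opa1 cKO in red, with 95% counting intervals; groups under 20 cells are left out, so CT has no point below 2%. Slc1a2 is highest and Glul lowest above 8% in both libraries, while Gja1 lies lower and Aqp4 higher in Opa1 cKO at each shared step.

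The members also varied between the clusters that make up the NSC pool-like class. In CT, cluster 2 had more Gjb6 than cluster 1, 1076 CPM (1012 to 1143) against 689 CPM (659 to 721), and less Slc1a2, 3539 CPM (3423 to 3659) against 4898 CPM (4816 to 4981). Only Gjb6 was past 1.5-fold in CT, with a log2 ratio of 0.64 (0.53 to 0.75) and a background of 6.77% of 2052 genes as much higher and 1.51% as much lower. In Opa1 cKO the same 2 genes had the same order and Gjb6 was again past 1.5-fold (background 9.03%), with Grin2c past it lower on 30 UMIs (background 6.07%), with 1420 against 821 CPM for Gjb6 and 2826 against 4119 CPM for Slc1a2. Gja1 was higher in cluster 2 as well, at 3327 against 2753 CPM in CT and 2676 against 1994 CPM in Opa1 cKO. In cluster 1, compared between the libraries, Gja1 had a log2 ratio of -0.46 (-0.52 to -0.41), Grin2c -0.39 (-0.57 to -0.21) and Slc6a11 -0.42 (-0.54 to -0.29). Aqp4 was past 1.5-fold higher in Opa1 cKO there, at 868 against 575 CPM and 0.59 (0.50 to 0.69), as were 1.35% of 2589 genes, and no member was past it lower (4.63% of genes). Gjb6, near equal over the whole class, was higher in Opa1 cKO within both clusters, at 0.25 (0.16 to 0.34) and 0.40 (0.23 to 0.57). In cluster 2, where Opa1 cKO had 109 cells, Aqp4 was past 1.5-fold higher at 0.70 (0.46 to 0.94), as were 3.36% of 655 genes, and no member with at least 300 UMIs was past it lower (5.19% of genes). Grin2c, with fewer, had a log2 ratio of -1.29 (-1.88 to -0.74) from 30 Opa1 cKO and 265 CT UMIs. Gja1 had -0.31 (-0.43 to -0.20) in cluster 2. Slc6a11 did not differ beyond counting error there, at -0.05 (-0.32 to 0.21) from 151 Opa1 cKO and 567 CT UMIs.

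Barcodes without a YFP UMI did not enter these values, and 1858 CT and 1545 Opa1 cKO cells among them fell into NSC pool-like clusters when all cells were clustered. They come from the same 2 libraries and give the same measure in other cells. These cells were sorted as YFP+ too, so a missing YFP UMI does not mark a cell without recombination. Their median depths were 2034.5 (CT) and 2118 UMIs (cKO), and Opa1 had 19.2 and 9.14 CPM. Grin2c had 283 CPM (CT) and 169.8 CPM (cKO), a log2 ratio of -0.73 (-0.88 to -0.59). Slc6a11 had 574 and 386 CPM and -0.57 (-0.67 to -0.47), and Gja1 3149 and 2125 CPM and -0.57 (-0.61 to -0.53). Grin2c alone was past 1.5-fold lower, as were 5.14% of 3946 genes, and none was past it higher (6.31% of genes). Aqp4 was higher, at 559 and 728 CPM and 0.38 (0.30 to 0.46). Kcnj10 had 120.5 and 119.6 CPM and -0.01 (-0.20 to 0.18). The mt-low cells among them, 551 of 1545 in Opa1 cKO and 4 of 1858 in CT, had 268 CPM of Slc6a11 against 447 CPM in mt-normal Opa1 cKO cells, -0.74 (-0.92 to -0.56) on the log2 scale and the 1 member past 1.5-fold, as much lower as 2.73% of 2055 genes, with 11.8% as much higher. Between their mt-normal cells no member was past 1.5-fold (5.4% of genes lower, 1.46% higher), and Grin2c came closest at -0.58 (-0.74 to -0.42). Slc1a2 was again lower in mt-low cells, at -0.51 (-0.56 to -0.45), and Slc1a3 again higher, at 0.21 (0.16 to 0.26).

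The share of cells with a UMI, after each cell was thinned to 1500 UMIs, is given beside the levels. At a fixed depth this share depends on the mean level of the gene. It therefore cannot show whether a difference lies in the number of expressing cells or in the level per cell. Slc6a11 was found in 51.1% (48.3 to 53.8) of mt-normal CT cells, 42.4% (39.2 to 45.7) of mt-normal Opa1 cKO cells and 28.0% (25.7 to 30.4) of mt-low Opa1 cKO cells. Grin2c was found in 28.9% (26.4 to 31.5), 19.8% (17.3 to 22.5) and 16.8% (14.9 to 18.8). For both genes the share in oligodendrocyte-like cells was far lower, at 6.76% and 4.05% in CT and 11.9% and 3.96% in Opa1 cKO. Gja1, a gene with a higher level, was found in 96.8%, 94.2% and 89.9% of cells of the 3 groups. It had 4.47, 3.18 and 2.68 UMIs per cell on average after thinning. Aqp4 was found in 50.5% (47.7 to 53.3) of CT, 61.9% (58.7 to 65.1) of mt-normal and 56.4% (53.8 to 59.0) of mt-low Opa1 cKO cells. Before thinning the shares for Slc6a11 were 68.7%, 64.9% and 48.0%. Thinning left out 94 CT and 199 Opa1 cKO cells of the class as too shallow.

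**Figure D4:**
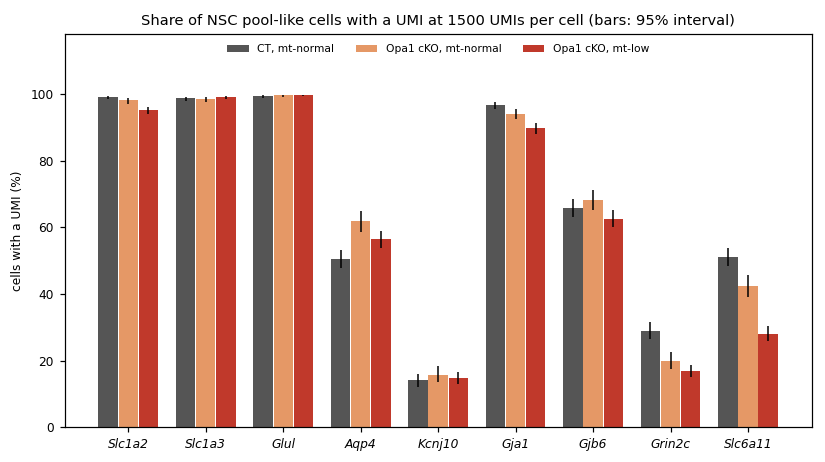
Share of NSC pool-like cells in percent with at least 1 UMI of each gene after thinning to 1500 UMIs per cell, for mt-normal CT (grey), mt-normal Opa1 cKO (orange) and mt-low Opa1 cKO (red) cells, with exact 95% binomial intervals. Slc6a11 steps down from 51.1% to 28.0% and Grin2c from 28.9% to 16.8%, Aqp4 is highest in mt-normal Opa1 cKO cells, and Slc1a3 and Glul are near 100% in each group.

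Other genes of the same functions were read from 3 lists. Of 18 further genes of transmitter uptake and metabolism, 14 had at least 300 UMIs in the first comparison, and 4 were past 1.5-fold higher and 2 lower in Opa1 cKO, beside 13.9% and 6.82% of all genes. The highest were the glutamine and neutral amino acid transporter Slc38a2, at 12.97 CPM in CT against 55.0 CPM, with a log2 ratio of 2.09 (1.66 to 2.54), and the cystine-glutamate exchanger Slc7a11, at 349 and 941 CPM and 1.43 (1.35 to 1.52). The lowest were the GABA-degrading enzyme Aldh5a1, at -0.68 (-0.98 to -0.38), and the neutral amino acid transporter Slc7a10, at -0.62 (-0.68 to -0.55). The median of this list, 0.15, was near that of all genes. It stood at 0.28 in the comparison of mt-low with mt-normal cells, where Slc38a2 had 1.29 and Slc7a11 1.22, with 4 of 12 genes past 1.5-fold higher and 1, Slc7a10, lower at -0.75, beside 13.1% and 2.13% of all genes. It was -0.19 between the mt-normal cells, where 0 of 9 genes were past 1.5-fold. Slc7a11 was the highest of the list there, at 0.57 (0.46 to 0.67).

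Of 18 genes of ion and water handling, 16 had at least 300 UMIs in the first comparison, with 0 past 1.5-fold higher, 2 past it lower (13.9% and 6.82% of all genes) and a median of -0.21. The lowest were the dystroglycan gene Dag1, whose product anchors Aqp4 complexes at endfeet, at -0.85 (-1.03 to -0.66), and the chloride channel Clcn2, at -0.67 (-0.96 to -0.38). The highest were Lrrc8a, a subunit of volume-regulated anion channels, at 0.52 (0.43 to 0.62), and the potassium channel Kcnk1, at 0.32 (0.24 to 0.40). In mt-low against mt-normal cells 1 of 15 genes, Lrrc8a at 0.93 (0.83 to 1.04), was past 1.5-fold higher and 1, the sodium pump regulator Fxyd1 at -0.63 (-0.70 to -0.56), lower, beside 13.1% and 2.13% of all genes, and the median was 0.03. Kcnj16 there, at 0.57, and Dag1, at -0.44, came next. Between the mt-normal cells the median was -0.17, and Dag1, at -0.60 (-0.83 to -0.37), was the 1 gene of 15 past 1.5-fold lower, beside 4.98% of all genes. Kcnk1, at 0.25, and Atp1b1, at 0.05, were the highest.

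Of 16 genes of receptors and coupling, 7 had at least 300 UMIs in the first comparison, with 4 past 1.5-fold lower, 1 higher (6.82% and 13.9% of all genes) and a median of -0.63. The lowest were the NMDA receptor subunit Grin2b, at -0.93 (-1.25 to -0.61), and the GABA receptor subunit Gabrg1, at -0.79 (-0.93 to -0.65). The highest were Gjb2, another connexin, at 1.00 (0.64 to 1.38) from 77 CT UMIs, and the metabotropic glutamate receptor Grm3, at 0.08 (-0.07 to 0.22). In mt-low against mt-normal cells the median was -0.09, with 1 of 6 genes, Gjb2 at 0.61 (0.27 to 0.96), past 1.5-fold higher, beside 13.1% of all genes. Gabbr1, at -0.02, was next, and the AMPA receptor subunit Gria2, at -0.35, and Gabrg1, at -0.21, were the lowest. Between the mt-normal cells the median was -0.46 and 1 of 5 genes, Gabrg1 at -0.67 (-0.84 to -0.49), was past 1.5-fold lower, beside 4.98% of all genes, next to the junction scaffold Tjp1 at -0.56. Grm3, at 0.12, and Gabbr1, at -0.34, were the highest.

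**Figure D5:**
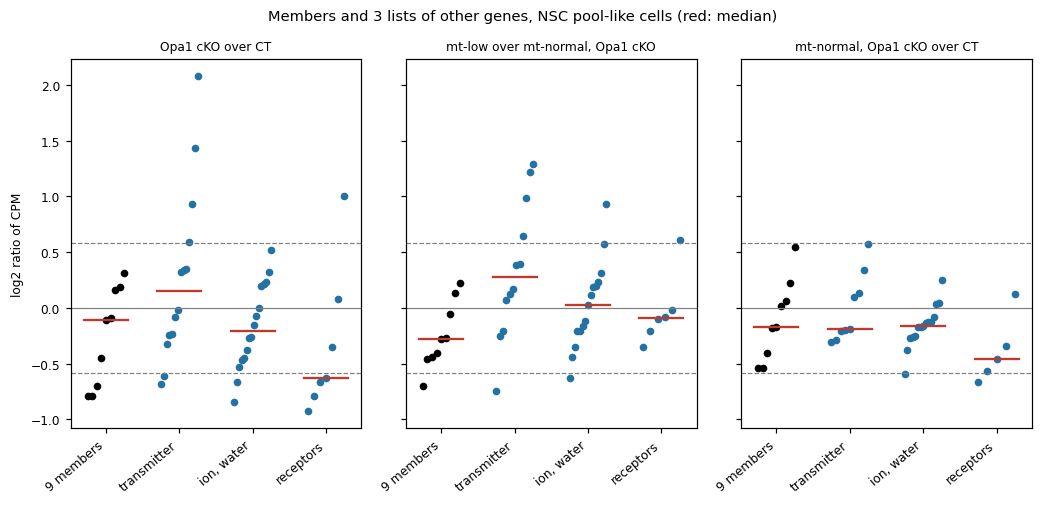
Log2 ratios of CPM in NSC pool-like cells for the 9 genes (black) and for the genes of 3 lists with at least 300 UMIs (blue), in the 3 comparisons, with each group's median as a red line and 1.5-fold as dashed lines. The transmitter list reaches 2.09 in Opa1 cKO over CT, and the median of the receptor and coupling list is the lowest in Opa1 cKO over CT and between mt-normal cells.

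The genes most like the 9 in their profile over the 7 classes of both libraries, 14 profiles of log2(CPM + 10) in all, were Cldn10 (Pearson r of 0.98 with the mean of the 9), Acsl6 (0.98), F3 (0.97), Timp4 (0.97) and Tlcd1 (0.97). The 14 profiles come from 2 libraries and share their free RNA. In NSC pool-like cells these 5 did not move together: the log2 ratio of Opa1 cKO over CT was -0.28 for Cldn10, 0.09 for Acsl6, 0.05 for F3, 0.33 for Timp4 and -0.37 for Tlcd1. Cldn10, a claudin, also had the lowest ratio of the 5 in mt-low against mt-normal cells, at -0.99. Against the mean of the 9, each member's own r ran from 0.59 for Kcnj10 to 0.94 for Gjb6, and the mean includes that member.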

How the data were processed

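The authors counted UMIs per gene and barcode with Cell Ranger (version 2.1.1 and mm10 in the submitters' processing notes; the matrix headers name software version 3.1.0), and the deposited values are counts, not normalized. Rows with the same symbol were added up. Cells with over 600 and under 7500 genes, under 20% mt- UMIs and at least 1 UMI of a YFP feature were kept (barcodes, UMIs in total: CT 4634, 10799936; Opa1 cKO 6475, 18662032; kept UMIs 5051491 and 12483473). They were normalized with SCTransform (sctransform 0.4.2) and clustered in Seurat 5.3.0 (R 4.3.3) without the 9 members, on 8 dimensions at resolution 0.2. A cluster was named for the cell type whose markers had the highest mean log2 ratio of CPM to the mean over clusters if enough of its markers were over 2-fold above clusters of other types and no other type had more markers in its top 10 genes. The form of this rule was set after clusters had been seen. The lists of mature astrocyte and radial glia-like NSC markers were not used for naming.

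UMIs were summed per library, class and mt- share group (cut at 1%). CPM has exact Poisson intervals, shares exact binomial (Clopper-Pearson) ones, and log2 ratios exact ones from a binomial model of how the UMIs of a gene divide between 2 groups. Each is a 95% interval of counting error only. The intervals of log2 ratios alone were tested on simulated counts. Those counts were drawn from the Poisson model that the intervals assume, so the test says nothing of the spread between cells or mice. A gene was called past a 1.5-fold difference, among genes with at least 300 UMIs over both groups. No p-value was computed. Named genes are the 9 members, Opa1, the 2 highest and 2 lowest genes of each list, and the 5 genes of most similar profile. A few genes that this rule or the marker lists would name are not reported here. The members and lists were chosen with earlier results of these data known. Doublets were kept. Scrublet in scanpy 1.11.5 called 2 CT and 3 Opa1 cKO cells, too few to have worked. Python 3.11.15, numpy 2.4.6, scipy 1.17.1, pandas 2.3.3 and matplotlib 3.10.9 were used. Alternatives covered clustering, filters, denominator, centring, depth, doublets and the mt- cut.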

Additional observations from a re-analysis of the deposited data

Results flagged for a closer look

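In classes other than the NSC pool-like class, some ratios of Opa1 cKO over CT had intervals on the other side of 0 from the NSC pool-like ratio. The difference between classes was not tested, since each genotype is 1 library. Slc1a2, with -0.45 on the log2 scale in NSC pool-like cells, had a ratio of 0.53 (0.28 to 0.79) for progenitor and neuron-like cells. Its ratio was 0.45 (0.15 to 0.75) for oligodendrocyte-like and 0.59 (0.17 to 1.045) for ependymal-like cells. Slc1a3, with -0.09 in NSC pool-like cells, had 0.78 (0.59 to 0.98) for progenitor and neuron-like cells. It had 0.83 (0.53 to 1.13) in oligodendrocyte-like, 0.31 (0.02 to 0.61) in mural-like and 0.57 (0.23 to 0.91) in endothelial-like cells. Gja1, with -0.70, stood at 0.61 (0.13 to 1.11) in oligodendrocyte-like cells and at 0.81 (0.03 to 1.73) in activated NSC-like cells, the latter against 13 UMIs in 11 CT cells. Gjb6, with -0.11, stood at 1.10 (0.36 to 1.90) in oligodendrocyte-like and 0.87 (0.05 to 1.76) in mural-like cells, against 20 and 16 CT UMIs.

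The levels behind these ratios were low outside the lineage. In oligodendrocyte-like cells Slc1a3 had 451 CPM for CT against 801 CPM, and 455 and 674 CPM in endothelial-like cells. Whether these levels were free RNA or expression by the cells was not tested. In oligodendrocyte-like cells Slc1a2, Aqp4, Gja1 and Gjb6 also had a ratio with an interval above 0. So did Glul, which these cells express and which does not show background. In endothelial-like cells Slc1a3 had an interval above 0, while Gja1 and Grin2c had one below 0. The share of all genes with such intervals was not computed. In Opa1 cKO, Slc1a2 had 650 CPM in progenitor and neuron-like, 650 CPM in oligodendrocyte-like, 819 CPM in mural-like and 485 CPM in endothelial-like cells. Its level in the progenitor class thus lay within the range of these classes. Its ratio was -0.17 (-0.47 to 0.12) in mural-like and -0.12 (-0.46 to 0.22) in endothelial-like cells, intervals that include 0. The part of the background in the progenitor ratio was not tested. The part of the background in the NSC pool-like ratios was not tested.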

How the results depend on the processing

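No paired analysis was possible because each genotype is 1 library, and no replicate could be left out. The median log2 ratio of the 9 genes kept its negative sign in all 3 comparisons under each alternative. For Opa1 cKO over CT it moved from -0.11 to -0.24 with the 9 genes kept in the clustering, -0.24 with mitochondrially encoded and stress-response genes left out of it, -0.18 with lineage cells clustered again and -0.25 with the median of all genes subtracted. For mt-low over mt-normal it moved from -0.28 to -0.10, -0.10 and, after subtraction, -0.51, and to -0.37 with the mt- cut at 2%. Between mt-normal cells it moved from -0.17 to -0.10 with the cut at 0.5%. In the first 2 of these clusterings no cluster was named activated NSC-like and the NSC pool-like class held 2994 and 2989 Opa1 cKO cells. Gja1, Grin2c and Slc6a11 were past 1.5-fold lower in Opa1 cKO than in CT under all 11 alternatives (log2 ratios from -0.84 to -0.64, -0.94 to -0.76 and -0.94 to -0.77). Not all of these alternatives could move a ratio much. Resolution 0.4 left that of Kcnj10 at 0.19, as in the main setting, and leaving out doublets removed 1 CT and 2 Opa1 cKO cells of the class. In mt-low cells Slc6a11 stayed past 1.5-fold under 10 of 13 (-0.93 to -0.54). After subtraction Slc1a2, Grin2c and Aqp4 were past it too, with no share of all genes computed on that scale, and Slc1a3 changed sign. Kcnj10 there ran from -0.35 to 0.23 with the cut at 0.5% and 2%. Between mt-normal cells Glul and Gjb6 had either sign, and Grin2c, Gja1 and Slc6a11 were past 1.5-fold lower in 7, 4 and 3 of 13 (lowest -0.81, -0.74 and -0.60) and Aqp4 higher in 1 (0.62). With genes of at least 50 UMIs the background was 1318 higher and 1160 lower instead of 766 and 375 for Opa1 cKO over CT, 1317 and 372 instead of 565 and 92 for mt-low over mt-normal, and 294 and 947 instead of 65 and 177 between mt-normal cells. Kcnj10 and Grin2c, the lowest counted members, are limited most by depth. The spread between mice was not measured.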
